A study of Homo sapiens with 16 samples.

Results

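The genes described here are 10 genes of cysteine transsulfuration and glutathione metabolism, chosen by symbol, of 35106 gene rows in a table of RNA sequencing counts. They are MAT2A, CBS, CBSL, CTH, SLC7A11, GCLC, GCLM, GSS, GSR and CHAC1, and each was found in the table. RNA came from MDA-MB-231 cells, a triple-negative breast cancer line with mesenchymal traits derived from a pleural effusion, and from SKBR3 cells, a breast cancer line with an amplified ERBB2 gene. MDA-MB-231 cells at passage 25 received 500 nM MitoQ for 48 h (5 libraries) or were controls (5 libraries), and SKBR3 cells at passage 10 received the same dose for the same time (3 libraries) or were controls (3 libraries). MitoQ is a ubiquinone joined to a triphenylphosphonium cation, which carries it into mitochondria. What the control cells received, and whether the replicates were separate cultures, is not given in the sources used here, so that p-values measure the spread between these libraries, which may be technical. Each line stands for itself alone, and line and passage cannot be told apart.

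Cysteine reaches a cell by import or by synthesis from methionine. In the methionine cycle S-adenosylmethionine is made and used, which leaves homocysteine; transsulfuration joins homocysteine to serine as cystathionine and then cleaves it to cysteine. Cystine, the oxidised dimer, enters through the exchanger xCT. Cysteine is the limiting building block of glutathione, the main thiol antioxidant of the cell, which is made in 2 steps from glutamate, cysteine and glycine, kept reduced by a reductase, and broken down inside the cell by gamma-glutamyl cyclotransferases. In many mammalian cells CTH, SLC7A11 and CHAC1 are targets of the transcription factor ATF4 of the amino acid response, and GCLC, GCLM, GSR and SLC7A11 are targets of NRF2 of the antioxidant response.

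CBS, the enzyme of the first transsulfuration step, has a near-identical copy in the GRCh38 assembly, CBSL, and the stretch below shows the only base at which their coding sequences differ. In GENCODE release 29 CBS lay at chr21:43053191-43076943 and CBSL at chr21:6444869-6468040, both on the minus strand. Their coding sequences of 1653 bases differed at 1 base, C699T, counted from the first coding base with the base of CBS first, an identity of 99.94%. Bases 669 to 728 of each coding sequence are given 5′ to 3′, with the differing base in capitals.
CBS: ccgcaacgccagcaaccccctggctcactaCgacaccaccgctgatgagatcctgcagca
CBSL: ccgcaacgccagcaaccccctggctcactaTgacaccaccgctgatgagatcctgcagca
Of the 31-base stretches in transcripts of CBSL 93.8% also lay in transcripts of other genes described here, as did 55.9% of those of CBS. Reads could therefore not be assigned to either copy with certainty, and the sum of both rows, written CBS+CBSL, was used as 1 gene wherever it is named. For the 8 other genes the share of stretches found, on either strand, in transcripts of genes not described here ran from 0% for CHAC1 to 14.9% for MAT2A. Those transcripts include ones of genes that overlap their exons, such as GGCX for MAT2A.

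Promoter windows of RefSeq on GRCh38.p14, 250 bases before to 50 after the start site, were available for 6 of the 10 genes (MAT2A, CBS, CTH, GCLC, GCLM and CHAC1). They were searched on both strands for TGATGNAA, the core letters of the amino acid response element, and TGACNNNGC, those of the antioxidant response element. The first set of letters was found in 3.62% and the second in 13.3% of 35116 such windows of all genes. The windows of CHAC1 and GCLM each held 1 match, and those 30 bases are shown with the match in capitals because both genes are textbook targets of the factor that binds such letters. CHAC1 matched the first set on the opposite strand, 209 bases before the RefSeq start of its window (chr15:40953251-40953280, plus strand). That stretch lies inside the GENCODE span of CHAC1 (chr15:40952962-40956519), whose start lies further upstream, so the match precedes the RefSeq start only. GCLM matched the second set, also on the opposite strand, 34 bases before its RefSeq start (chr1:93909446-93909475, minus strand).
CHAC1: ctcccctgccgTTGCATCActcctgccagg
GCLM: ctacgatttctGCTTAGTCAttgtcttcca
CBS matched the second set on the opposite strand in 1 of its 3 windows, 83 bases before the RefSeq start of that window. This match too lies inside the GENCODE span of its gene, given above. The windows of MAT2A, CTH and GCLC held neither set of letters. The marked letters are the reverse complements of those searched. A match is a string of letters, and no binding was measured.

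Summed counts per library ran from 19844695 to 25904852 with MitoQ and from 23612986 to 29294865 without it in MDA-MB-231, and from 19157771 to 27739692 with MitoQ and from 14723152 to 27841144 without it in SKBR3. A count of 0 allowed up to 3 counts, a level of 0.102 to 0.204 CPM, for counting error only. The labels fitted the summed markers of the lines. ERBB2, epithelial keratins and other genes listed for SKBR3 summed to 13008 to 14199 CPM in SKBR3 MitoQ libraries and 11867 to 13437 CPM in SKBR3 controls. In MDA-MB-231 libraries of either treatment they summed to 996 to 1224 CPM. CDH1, also on that list, did not separate the lines. With MitoQ it had 2.46 ± 0.316 CPM in SKBR3 and 2.25 ± 0.269 CPM in MDA-MB-231 (SD, n = 3 and 5). In controls it had 2.76 ± 0.0817 CPM in SKBR3 and 2.56 ± 0.427 CPM in MDA-MB-231 (SD, n = 3 and 5). The 6 markers of fibroblasts and endothelium summed to 25.5 to 30.9 CPM in SKBR3 MitoQ libraries and 21.6 to 26.6 CPM in SKBR3 controls, mostly CDH5 (23.0 ± 2.86 CPM with MitoQ and 17.5 ± 2.31 CPM in controls; SD, n = 3 each), with LUM at 0. In MDA-MB-231 they summed to 4.66 to 6.29 CPM with MitoQ and 4.86 to 6.92 CPM in controls. The part of such cells in the results was not tested. In the table the column names of the SKBR3 libraries also carry 231, the number of the other line, which these markers go against. The 6 leukocyte markers summed to at most 3.88 CPM in any library. Levels are given as normalised CPM, with TMM factors computed over all 16 libraries. Changes are log2 fold changes ± SE of MitoQ over control from edgeR, and a gene is called changed at an adjusted p under 0.05.

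Among these genes the effect of MitoQ differed most between the lines in CTH. In MDA-MB-231 cells CTH, the second enzyme of transsulfuration, rose 8.17-fold with MitoQ while CBS+CBSL, the first, stayed near the detection floor. In SKBR3 cells CBS+CBSL rose 5.05-fold, and CTH did not change past the test. SLC7A11 and CHAC1 rose in both lines, by more in MDA-MB-231. The genes of glutathione synthesis and reduction moved by at most 1.24-fold in either line.

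**Figure D1:**
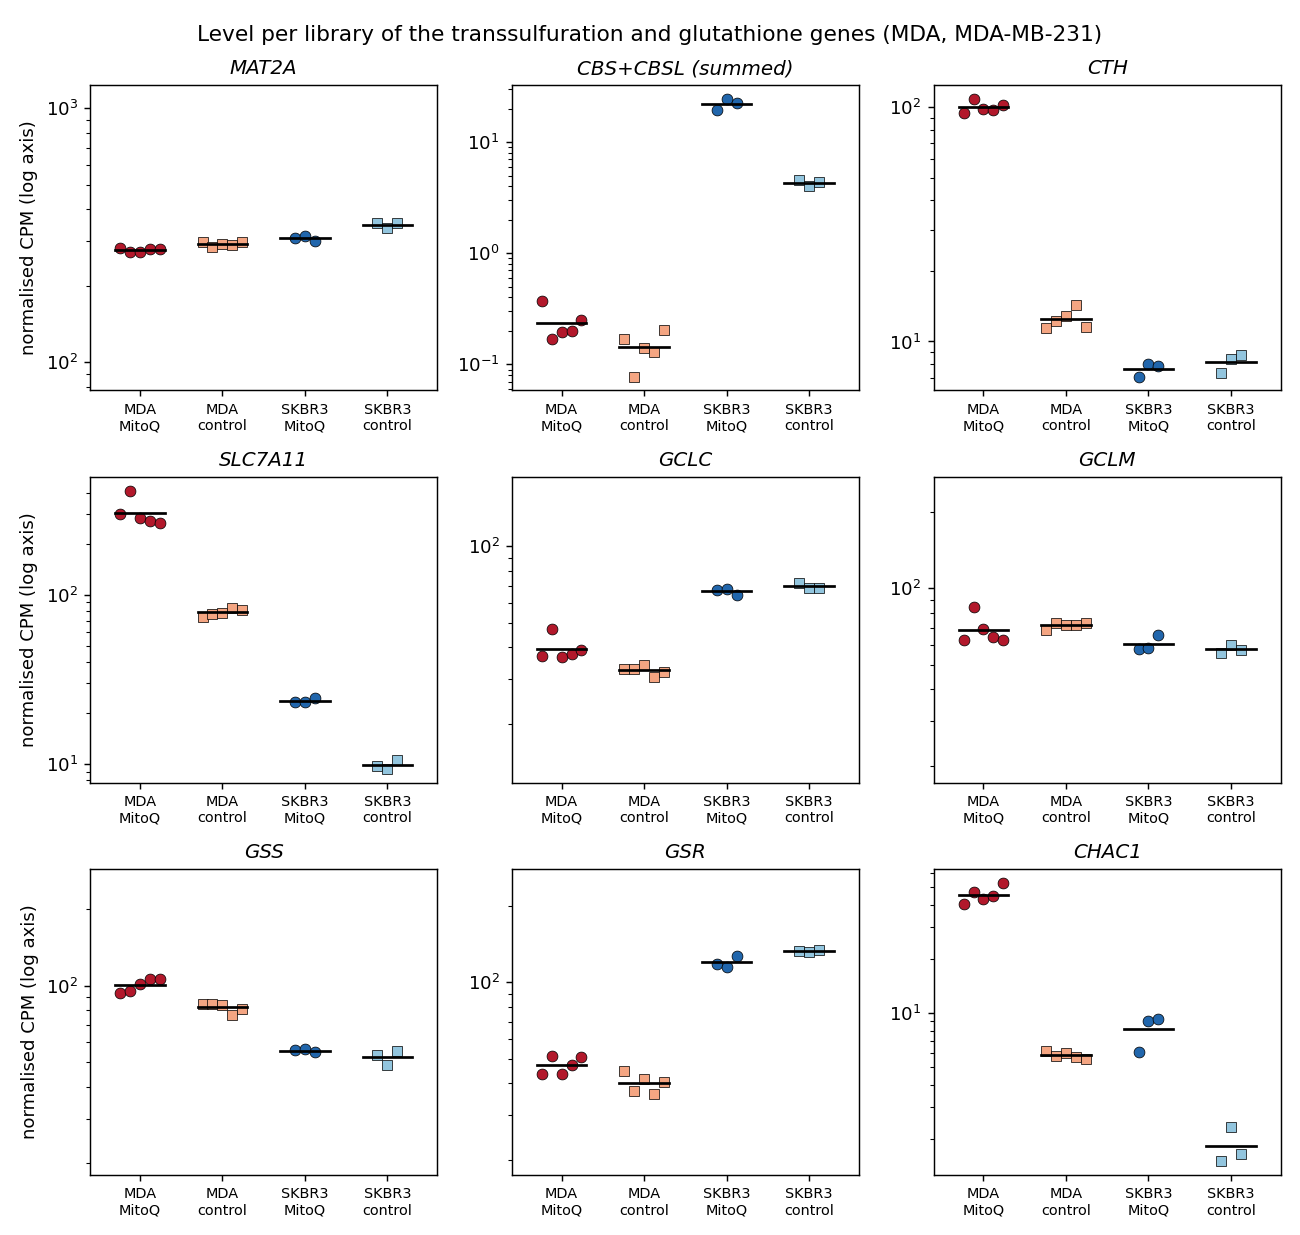
Normalised CPM (log axis, each panel with its own range) of each gene in each of the 16 libraries; points are libraries in replicate order, circles MitoQ and squares control, and lines are group means (n = 5 and 5 for MDA-MB-231, written MDA, n = 3 and 3 for SKBR3). CTH stands apart in the MDA-MB-231 MitoQ libraries alone, at 94.8 to 109 CPM, and CBS+CBSL in the SKBR3 MitoQ libraries, at 19.4 to 24.5 CPM.

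MAT2A (chr2:85539165-85545280), the enzyme that makes S-adenosylmethionine outside the liver, was the most abundant of these genes per length in each group. In MDA-MB-231 its level was 280, 271, 271, 278 and 280 CPM in the MitoQ libraries, against 296, 283, 292, 290 and 296 CPM in the controls. The groups did not overlap, but the difference of -0.056 ± 0.038 was not called (adjusted p = 0.213), and 2 of the other fits called it: DESeq2 at an adjusted p of 0.0359 and a single fit over all libraries at 0.0490. In SKBR3 the level was 310, 313 and 301 CPM with MitoQ and 352, 339 and 353 CPM in controls, without overlap. There MAT2A fell by 0.20 ± 0.037 on the log2 scale (adjusted p = 0.00132). The effects in both lines could not be told apart (difference 0.098 ± 0.054, adjusted p = 0.178), although plain library totals (0.19, adjusted p = 0.00841) and DESeq2 (0.12, adjusted p = 0.00854) called that difference. The exons of MAT2A overlap those of GGCX on the opposite strand by 558 bases, and whether the libraries kept strand is not given in the sources used here. Those of SLC7A11 overlap SLC7A11-AS1 on the opposite strand by 865 bases. Those of GCLC overlap AL033397.1 on the same strand by 529 bases and AL033397.2 on the opposite strand by 7 bases. GGCX has a row of its own among the counts, and the other overlapping genes have none.

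CBS+CBSL showed the rise of SKBR3. Its level was 19.4, 24.5 and 22.7 CPM in the SKBR3 MitoQ libraries, against 4.55, 3.99 and 4.42 CPM in the SKBR3 controls. Each MitoQ library lay above each control, with no overlap. The change was 2.34 ± 0.11 (adjusted p = 7.78e-09). Set among the 15026 genes tested it ranked 6th by rise, with the row of CBS alone counted among those above it. Each row on its own rose as well, CBS by 2.47 ± 0.15 (adjusted p = 1.82e-07) and CBSL by 2.16 ± 0.18 (adjusted p = 2.93e-06). CBS held 56.5% to 60.7% of the summed counts in the SKBR3 MitoQ libraries and 39.3% to 63.3% in the controls.

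In MDA-MB-231 the same sum was close to the floor in every library. It was 0.370, 0.170, 0.196, 0.198 and 0.250 CPM in the MitoQ libraries and 0.169, 0.0778, 0.141, 0.129 and 0.204 CPM in the controls, with overlap between the groups. These values rest on 29 counts over the MitoQ libraries and 18 over the controls, of which CBS itself had 4 in the MitoQ libraries and 3 in the controls. The ratio was 1.68 with a 95% counting interval of 0.902 to 3.21. Neither row nor the sum passed the filter on low counts in that line, so no change was tested there. Without the filter the sum was not called (0.72 ± 0.48, adjusted p = 0.266). In bulk RNA fewer cells with a transcript and less of it per cell cannot be told apart.

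In the fit over all 16 libraries, which these rows entered only through their level in SKBR3, the fitted effect on CBS+CBSL in MDA-MB-231 minus that in SKBR3 was -1.63 ± 0.40 (adjusted p = 0.00302). Its MDA-MB-231 side rests on those few counts. CBSL alone gave -1.41 ± 0.49 (adjusted p = 0.0292), and this call was lost in 4 of 23 alternatives, each leaving out 1 control library. CBS alone was not called (-2.09 ± 1.12, adjusted p = 0.184). For CBS+CBSL, control MDA-MB-231 cells had 0.0329 times the level of control SKBR3 cells (95% counting interval 0.0192 to 0.0531), a fitted difference of -4.88 ± 0.25 (adjusted p = 6.68e-14). The sum, like each row, entered this fit of the controls too only through its level in SKBR3. Its MDA-MB-231 side rests on 18 counts.

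CTH (chr1:70411218-70439851), which cleaves cystathionine to cysteine, showed the reverse. In MDA-MB-231 it stood at 94.8, 109, 97.9, 97.0 and 103 CPM in the MitoQ libraries, against 11.4, 12.2, 12.9, 14.3 and 11.5 CPM in the controls. No library of this line lay between 14.3 and 94.8 CPM. The rise of 3.03 ± 0.064 (adjusted p = 1.70e-17) ranked 47 among 15304 genes tested. In SKBR3 the level was 7.09, 8.01 and 7.86 CPM with MitoQ and 7.31, 8.39 and 8.80 CPM in controls. These groups overlapped, and CTH was not called (-0.12 ± 0.11, adjusted p = 0.486). The effect was larger in MDA-MB-231 than in SKBR3 by 3.10 ± 0.12 (adjusted p = 4.71e-15), the 88th largest such difference of 17094 genes. Among controls the lines were closer: control MDA-MB-231 exceeded control SKBR3 by 0.58 ± 0.099 (adjusted p = 1.31e-05).

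As CTH had the largest rise of these genes in MDA-MB-231, the 200 bases upstream of its GENCODE start are shown. They come from its RefSeq window on GRCh38.p14 (chr1:70411018-70411217, plus strand). Neither set of letters is in that window, so none is in capitals.
CTH: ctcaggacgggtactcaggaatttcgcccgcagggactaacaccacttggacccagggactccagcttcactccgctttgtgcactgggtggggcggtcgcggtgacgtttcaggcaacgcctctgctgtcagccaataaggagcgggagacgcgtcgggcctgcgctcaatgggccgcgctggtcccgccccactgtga

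**Figure D2:**
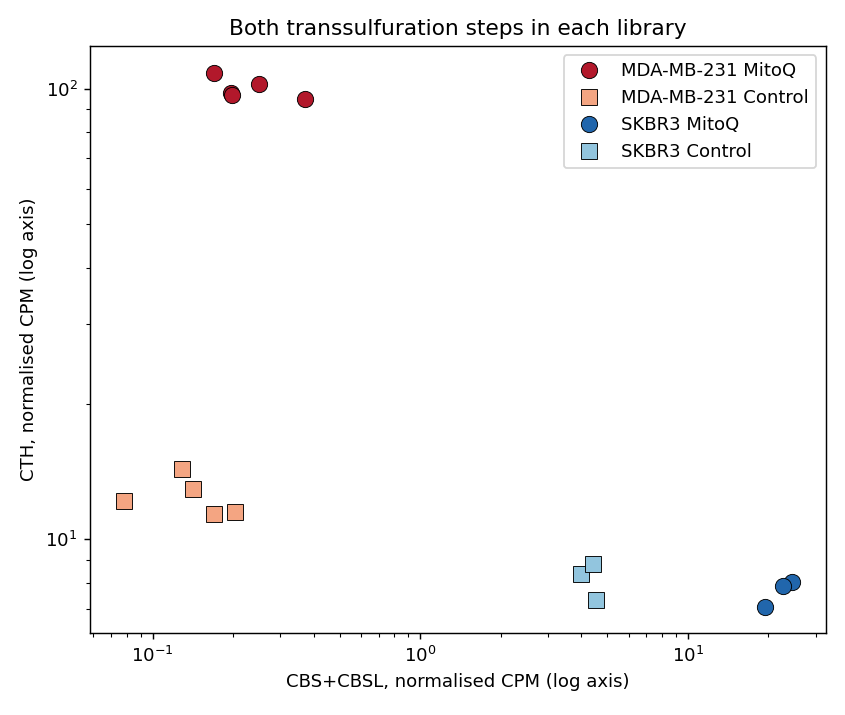
CTH against CBS+CBSL in normalised CPM (both axes logarithmic), 1 point per library, circles MitoQ and squares control. MitoQ libraries lie above their controls along the CTH axis in MDA-MB-231 (94.8 to 109 against 11.4 to 14.3 CPM) and to the right of their controls along the CBS+CBSL axis in SKBR3 (19.4 to 24.5 against 3.99 to 4.55 CPM).

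SLC7A11 (chr4:138164097-138242349), the transport subunit of xCT that exchanges glutamate for cystine, rose in both lines. In MDA-MB-231 the MitoQ libraries had 297, 409, 283, 271 and 263 CPM and the controls 73.9, 77.3, 78.1, 83.1 and 80.8 CPM. The groups lay far apart, and the MitoQ library of replicate 2 stood above the other 4. The change was 1.98 ± 0.12 (adjusted p = 9.63e-08), a 3.94-fold rise. In SKBR3 the levels were 23.2, 23.3 and 24.4 CPM with MitoQ and 9.80, 9.38 and 10.5 CPM in controls, without overlap. That rise was 1.22 ± 0.075 (adjusted p = 1.90e-07), or 2.34-fold. The effect was larger in MDA-MB-231 by 0.71 ± 0.20 (adjusted p = 0.0109), a call that was lost without SKBR3 control replicate 3 (0.65, adjusted p = 0.0590). The level itself differed more than the response: control MDA-MB-231 lay above control SKBR3 by 2.96 ± 0.065 (adjusted p = 1.36e-20), so that SKBR3 cells given MitoQ, at 23.6 ± 0.667 CPM (SD, n = 3), stayed below control MDA-MB-231 cells, at 78.6 ± 3.52 CPM (SD, n = 5). SLC3A2, which encodes the chaperone subunit of xCT and of other amino acid exchangers, rose by 1.30 ± 0.068 in MDA-MB-231 (adjusted p = 3.44e-11) and by 0.43 ± 0.047 in SKBR3 (adjusted p = 1.87e-05).

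Glutamate-cysteine ligase, which makes the first bond of glutathione, has a catalytic subunit, GCLC (chr6:53497341-53616970), and a modifier subunit, GCLM (chr1:93885205-93909456), and only the first was called, in MDA-MB-231. In MDA-MB-231 GCLC lay at 37.0, 47.4, 36.5, 37.6 and 39.2 CPM with MitoQ and 33.0, 33.0, 34.2, 30.6 and 32.0 CPM in controls. The groups did not overlap, and GCLC rose by 0.30 ± 0.069 (adjusted p = 0.000974). In SKBR3 it lay at 67.3, 67.7 and 64.3 CPM with MitoQ and 71.7, 68.4 and 68.6 CPM in controls. These groups did not overlap either, yet the difference was not called (-0.084 ± 0.047, adjusted p = 0.208). The effects differed between the lines by 0.34 ± 0.094 (adjusted p = 0.00590).

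GCLM was not called in either line. In MDA-MB-231 it had 62.6, 84.3, 69.4, 64.2 and 62.5 CPM with MitoQ and 68.7, 72.7, 71.7, 72.0 and 73.3 CPM in controls, with overlap (-0.041 ± 0.072, adjusted p = 0.652). The highest value was that of MitoQ replicate 2, and without that library GCLM was called lower (-0.12, adjusted p = 0.0229). In SKBR3 it had 57.5, 58.0 and 65.7 CPM with MitoQ and 55.8, 60.0 and 57.3 CPM in controls (0.045 ± 0.055, adjusted p = 0.601). The difference of the effects was -0.13 ± 0.11 (adjusted p = 0.396), and it too was called without MDA-MB-231 MitoQ replicate 2 (-0.23, adjusted p = 0.0155).

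The ratio of the subunits' counts, which library scaling cannot move, was compared after the values above were seen, with 2 other ratios, in 9 two-sided exact permutation tests with Benjamini-Hochberg adjustment. GCLC to GCLM was 0.592, 0.562, 0.526, 0.586 and 0.628 in the MDA-MB-231 MitoQ libraries and 0.480, 0.454, 0.477, 0.426 and 0.437 in the controls. No value overlapped, including that of replicate 2, in which both subunits were high (exact permutation p = 0.00794, adjusted 0.0238, the smallest that 252 regroupings can give). In SKBR3 the ratio averaged 1.11 ± 0.109 with MitoQ and 1.21 ± 0.0728 in controls (SD, n = 3 each; exact permutation p = 0.4, where 0.1 is the smallest possible). CTH to SLC7A11 averaged 0.335 ± 0.0468 with MitoQ and 0.158 ± 0.0114 in controls of MDA-MB-231 (SD, n = 5 each; exact permutation p = 0.00794, adjusted 0.0238). In SKBR3 the same ratio averaged 0.324 ± 0.0191 with MitoQ and 0.825 ± 0.0744 in controls (SD, n = 3 each; exact permutation p = 0.1, adjusted 0.129). With 3 libraries against 3 such a test cannot go below 0.1.

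GSS (chr20:34928433-34956027), glutathione synthetase, adds glycine in the second step. In MDA-MB-231 it had 93.8, 95.6, 102, 107 and 107 CPM with MitoQ and 84.6, 84.5, 84.2, 76.8 and 81.2 CPM in controls. Each MitoQ library lay above each control, and GSS rose by 0.32 ± 0.049 (adjusted p = 1.66e-05). In SKBR3 it had 55.7, 56.2 and 54.9 CPM with MitoQ and 53.5, 48.7 and 55.4 CPM in controls, with overlap (0.058 ± 0.052, adjusted p = 0.454). The difference of the effects was just called (0.22 ± 0.078, adjusted p = 0.0363), and 13 of 23 alternatives lost it, with an adjusted p of up to 0.157.

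GSR (chr8:30678061-30727999), the reductase that returns oxidised glutathione to its reduced form, was called in opposite directions. In MDA-MB-231 it had 43.6, 51.2, 43.5, 47.1 and 51.0 CPM with MitoQ and 44.9, 37.2, 41.6, 36.4 and 40.6 CPM in controls; the highest control exceeded the lowest MitoQ libraries. It rose by 0.26 ± 0.066 (adjusted p = 0.00232). In SKBR3 it had 118, 115 and 127 CPM with MitoQ and 133, 131 and 134 CPM in controls, without overlap, and fell by 0.17 ± 0.041 on the log2 scale (adjusted p = 0.00648). That fall was lost in the single fit over all libraries (adjusted p = 0.168) and without SKBR3 MitoQ replicate 2 (adjusted p = 0.0983). The effects differed by 0.38 ± 0.092 (adjusted p = 0.00198), and each of 23 alternatives kept that call.

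CHAC1 (chr15:40952962-40956519), a gamma-glutamyl cyclotransferase that breaks glutathione down, had the second largest rise of these genes in MDA-MB-231. The MitoQ libraries had 40.4, 46.9, 43.2, 44.5 and 52.7 CPM and the controls 6.16, 5.75, 6.01, 5.72 and 5.58 CPM. The rise was 2.98 ± 0.076 (adjusted p = 2.36e-16), or 7.90-fold. In SKBR3 the MitoQ libraries had 6.12, 9.07 and 9.26 CPM and the controls 1.52, 2.33 and 1.66 CPM. The groups lay apart in both lines, and the rise in SKBR3 was 2.16 ± 0.20 (adjusted p = 6.58e-06), or 4.46-fold. The effect was larger in MDA-MB-231 by 0.77 ± 0.22 (adjusted p = 0.00769), a call that was lost without SKBR3 control replicate 2 (0.61, adjusted p = 0.0615). CHAC2, its relative, went the other way: it fell by 0.40 on the log2 scale in MDA-MB-231 (adjusted p = 0.000507) and by 0.42 in SKBR3 (adjusted p = 0.0175), the second of which 3 alternatives lost. CHAC2 was picked out after its values were seen.

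**Figure D3:**
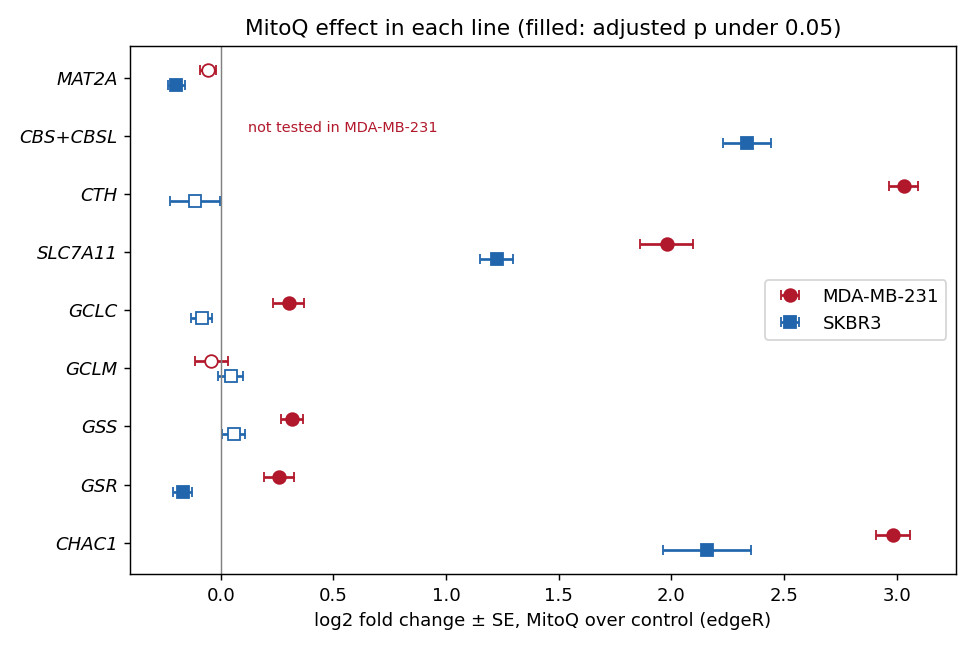
Log2 fold change ± SE of MitoQ over control (edgeR) for each gene, ordered by its place in the pathway; circles are MDA-MB-231 (n = 5 and 5), squares SKBR3 (n = 3 and 3), and filled symbols have an adjusted p under 0.05. CTH is filled at 3.03 in MDA-MB-231 and open at -0.12 in SKBR3; CBS+CBSL is filled at 2.34 in SKBR3 and has no MDA-MB-231 value.

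Many genes changed with MitoQ, and the counts of members are read against that background. In MDA-MB-231, where 57.5% of 15304 genes were called, 6 of the 8 members that passed the filter were called, each higher (29.9% of all genes were called higher), and CBS and CBSL did not pass. None was called lower with edgeR, where 27.6% of all genes were; 0 were lower at an unadjusted p under 0.05, and 1, MAT2A, was with DESeq2. In SKBR3, where 28% of 15026 genes were called, 4 of 10 were called higher (13.8% of all genes), counting CBS and CBSL, which share reads, as separate, and 2 lower (14.1% of all genes). The groups did not overlap for 6 of those 8 members in MDA-MB-231, and for 44.1% of all genes, and for 7 of 10 members in SKBR3, and for 40% of all genes. A called rise of at least 2-fold was seen in 4.63% of all genes in MDA-MB-231, among them CTH, CHAC1 and SLC7A11, and in 0.805% in SKBR3, among them CBS, CBSL, CHAC1 and SLC7A11. The median log2 fold change of the members tested was 0.31 in MDA-MB-231, against 0.012 over all genes tested there, and 0.051 in SKBR3, against -0.00064 over all genes tested there. The effect differed between the lines in 34.1% of 17094 genes, and in 7 members, of which CTH, CHAC1, SLC7A11, GCLC, GSS and GSR were higher in MDA-MB-231 (14.9% of all genes) and CBSL lower (19.1% of all genes), the last in the fit only through its level in SKBR3. Of all genes called in that comparison 43.9% were higher, and 58.4% with plain library totals. Both control groups enter every such difference, so it is not independent of the effects within each line.

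The control groups of the lines differed in 86.5% of 16398 genes and in each of the 10 members. Control MDA-MB-231 lay above control SKBR3 in 5 members (44.4% of all genes were higher), CTH, CHAC1, SLC7A11, GCLM and GSS, by 0.30 to 2.96 on the log2 scale. It lay below in 5 (42% of all genes were lower), CBS, CBSL, GCLC, GSR and MAT2A. CBS and CBSL, which share reads and are counted here as separate, entered this fit only through their level in SKBR3. GSR differed by -1.74 ± 0.054 (adjusted p = 1.16e-17) and GCLC by -1.11 ± 0.049 (adjusted p = 3.90e-15). With GCLC the lower and GCLM the higher in MDA-MB-231, the count ratio of GCLC to GCLM averaged 0.455 ± 0.0240 in MDA-MB-231 controls and 1.21 ± 0.0728 in SKBR3 controls (SD, n = 5 and 3; exact permutation p = 0.0179, adjusted 0.0268, the smallest of 56 regroupings).

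Levels of different genes were compared per kilobase of exon. In MDA-MB-231 MitoQ libraries MAT2A led with a level of 73.6 ± 1.31 CPM per kilobase, followed by CTH (46.8 ± 2.55), SLC7A11 (31.6 ± 6.20), GSS (30.7 ± 1.82), CHAC1 (22.1 ± 2.25), GSR (14.8 ± 1.18), GCLM (14.0 ± 1.89), GCLC (6.20 ± 0.704) and CBS+CBSL (0.0868 ± 0.0293, SD, n = 5). SLC7A11 and GSS lay within their spread of each other, as did GSR and GCLM. In the MDA-MB-231 controls CTH was the 6th of the 9, at 5.82 ± 0.564, next to GCLC at 5.11 ± 0.208, and CHAC1 the 8th, at 2.84 ± 0.114. Thus CTH moved up to second place among these genes with MitoQ. In SKBR3 the upper 5 places were held in both groups by MAT2A, GSR, GSS, GCLM and GCLC, from 82.1 ± 1.75 to 10.4 ± 0.294 CPM per kilobase with MitoQ and from 92.7 ± 2.16 to 10.9 ± 0.291 in controls (SD, n = 3 each). CBS+CBSL stood at 8.14 ± 0.955 with MitoQ and 1.58 ± 0.106 in controls, and CTH at 3.58 ± 0.233 with MitoQ and 3.82 ± 0.358 in controls. CHAC1 stood at 3.96 ± 0.855 with MitoQ and 0.893 ± 0.210 in controls, and SLC7A11 at 2.45 ± 0.0692 with MitoQ and 1.03 ± 0.0602 in controls. CHAC1 and CTH with MitoQ, and SLC7A11 and CHAC1 in controls, lay within their spread of each other.

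The genes most like CTH, CHAC1, SLC7A11 and CBS+CBSL in pattern over the 16 libraries were sought among 17093 genes, as the smallest root mean square difference of centred log2 levels. For CTH these were RPLP0P2, a processed pseudogene (0.22), DRD5P1, a processed pseudogene with 100 counts in the MDA-MB-231 MitoQ libraries and 1 in all others (0.30), and TXNIP, the thioredoxin-binding protein (0.31). TXNIP had 473 ± 6.43 CPM with MitoQ and 91.3 ± 2.56 CPM in controls of MDA-MB-231 (SD, n = 5 each), and 57.9 ± 6.20 CPM with MitoQ and 57.4 ± 5.63 CPM in controls of SKBR3 (SD, n = 3 each). Its change was 2.40 ± 0.042 in MDA-MB-231 (adjusted p = 1.29e-18) and 0.0037 ± 0.091 in SKBR3 (adjusted p = 0.983).

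For CHAC1 the nearest were SESN2 (0.36), asparagine synthetase ASNS (0.48) and the stress cytokine GDF15 (0.48), each higher with MitoQ in both lines. SESN2 rose by 2.88 ± 0.080 in MDA-MB-231 (adjusted p = 2.57e-15) and 1.07 ± 0.11 in SKBR3 (adjusted p = 1.07e-05), with effects that differed by 1.78 ± 0.16 (adjusted p = 8.93e-09). For SLC7A11 they were the homeobox gene MEIS3 (0.31), the cell cycle inhibitor CDKN1A (0.36) and PPP1R15A (0.36), a phosphatase subunit of the stress response. For CBS+CBSL they were IGFL1 (0.44), CSF2RB (0.50) and CRYAB (0.61), each far lower in MDA-MB-231, and 0 of these 3 remained with a prior count of 0.5. With that prior count 2 of 3 remained for CTH, where SESN2 (0.40) took the place of DRD5P1. All 3 remained for CHAC1 and for SLC7A11. The measure mixes the difference between lines with that of treatment and has no test.

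Other genes of the pathway were taken in 5 lists. The counts in each stand against 29.9% of all genes higher and 27.6% lower in MDA-MB-231, and 13.8% higher and 14.1% lower in SKBR3. In the methionine cycle 2 of 10 tested genes rose and 1 fell in MDA-MB-231. In SKBR3 1 of 9 fell, and 0 rose with edgeR, with 0 higher at an unadjusted p under 0.05 and 0 higher with DESeq2. AHCYL2, a relative of the hydrolase that frees homocysteine, rose by 0.47 ± 0.052 in MDA-MB-231 (adjusted p = 2.61e-07) and had -0.069 ± 0.075 in SKBR3 (adjusted p = 0.544). MAT2B, the regulatory partner of MAT2A, fell by 0.34 ± 0.053 on the log2 scale in MDA-MB-231 (adjusted p = 1.88e-05) and by 0.20 ± 0.062 in SKBR3 (adjusted p = 0.0277), the second lost in 5 of 14 alternatives. MAT1A, the liver form, rose from a very low base, with 134 counts over the MitoQ libraries and 49 over the controls of MDA-MB-231 (1.53 ± 0.28, adjusted p = 0.000128). This gene, 1 of the 2 rises counted, passed the filter on low counts only through its level in the MitoQ libraries. There it had 0.792 to 1.33 CPM, against 0.129 to 0.566 CPM in the controls. AHCY, the hydrolase itself, had -0.094 in MDA-MB-231 (adjusted p = 0.114) and 0.038 in SKBR3 (adjusted p = 0.538).

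Of 16 tested genes of cysteine supply and sulfide oxidation 6 rose and 7 fell in MDA-MB-231, and 5 rose and 1 fell in SKBR3. The 7 falls in MDA-MB-231 became 4 without MitoQ replicate 1 and 4 with a replicate block; across all alternatives they numbered 4 to 7. SLC1A4, which carries serine and cysteine among others, had 79.6 ± 4.42 CPM with MitoQ and 12.6 ± 1.10 CPM in controls of MDA-MB-231 (SD, n = 5 each), a change of 2.68 ± 0.063 (adjusted p = 7.49e-17). In SKBR3 SLC1A4 had 41.5 ± 0.141 CPM with MitoQ and 27.8 ± 0.116 CPM in controls (SD, n = 3 each), a change of 0.56 ± 0.054 (adjusted p = 7.55e-06). SLC1A5, a glutamine carrier, rose by 1.52 ± 0.067 in MDA-MB-231 (adjusted p = 2.18e-12) and had 0.068 ± 0.042 in SKBR3 (adjusted p = 0.254). ETHE1, a mitochondrial enzyme of sulfide oxidation, rose in both lines, by 0.78 ± 0.077 in MDA-MB-231 (adjusted p = 6.11e-08) and by 0.49 ± 0.079 in SKBR3 (adjusted p = 0.000489).

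Some genes of that list were picked out after their values were seen. SLC1A1, a carrier of glutamate and cysteine, had 1.02 ± 0.144 CPM with MitoQ and 3.06 ± 0.316 CPM in controls of MDA-MB-231 (SD, n = 5 each), a fall of 1.56 on the log2 scale (-1.56, adjusted p = 7.48e-08). MPST, which takes sulfur from mercaptopyruvate, had 31.3 ± 2.88 CPM with MitoQ and 44.9 ± 2.29 CPM in controls of MDA-MB-231 (SD, n = 5 each), but 32.2 ± 1.45 CPM with MitoQ and 24.9 ± 1.13 CPM in controls of SKBR3 (SD, n = 3 each). Both changes of MPST were called, and the effects differed by -0.89 (adjusted p = 1.74e-07).

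Of glutathione turnover and transport 18 genes were tested in MDA-MB-231, of which 8 rose and 7 fell, and 20 in SKBR3, of which 6 rose and 4 fell. The falls in SKBR3 depended on single libraries: they numbered 0 without control replicate 2 or without MitoQ replicate 2, and 1 or 2 without any other library, as with DESeq2, the single fit, plain totals and no filter. GGT7 rose by 1.40 ± 0.12 in MDA-MB-231 (adjusted p = 8.70e-09) and by 0.26 ± 0.085 in SKBR3 (adjusted p = 0.0338), the second lost in 6 of 14 alternatives. ABCC3, an efflux pump for conjugates, rose by 1.26 ± 0.063 in MDA-MB-231 (adjusted p = 4.28e-12) and had 0.096 ± 0.11 in SKBR3 (adjusted p = 0.550). ABCC4, another pump of that family, fell by 0.57 ± 0.047 on the log2 scale in MDA-MB-231 (adjusted p = 5.64e-09). In SKBR3 ABCC4 was low, at 2.69 ± 0.477 CPM with MitoQ and 1.63 ± 0.197 CPM in controls (SD, n = 3 each), and rose by 0.74 (adjusted p = 0.0146), a call lost without SKBR3 control replicate 3 or MitoQ replicate 2. GGT5, ABCC2 and SLC25A39 rose in both lines. GGT5, an extracellular glutamyl transferase, rose by 0.31 ± 0.097 in MDA-MB-231 (adjusted p = 0.0111) and by 0.71 ± 0.11 in SKBR3 (adjusted p = 0.000379). ABCC2 rose by 0.54 ± 0.11 in MDA-MB-231 (adjusted p = 0.000490) and by 0.39 ± 0.069 in SKBR3 (adjusted p = 0.000890), and SLC25A39, the mitochondrial glutathione carrier, by 0.23 ± 0.057 in MDA-MB-231 (adjusted p = 0.00193) and by 0.28 ± 0.053 in SKBR3 (adjusted p = 0.0015). OPLAH, which opens the 5-oxoproline that CHAC1 releases and was picked out after its values were seen, rose by 1.06 in MDA-MB-231 (adjusted p = 6.75e-08) and by 0.996 in SKBR3 (adjusted p = 0.00944).

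Among 12 tested peroxidases, glutaredoxins and glyoxalases 3 rose and 3 fell in MDA-MB-231, and 3 rose and 2 fell in SKBR3. The falls in MDA-MB-231 were GLRX3 (-0.53 ± 0.050, adjusted p = 4.09e-08) and GLRX5 (-0.36 ± 0.044, adjusted p = 7.87e-07), glutaredoxins of iron-sulfur metabolism, and GLO1 (-0.53 ± 0.054, adjusted p = 8.11e-08), which uses glutathione to clear methylglyoxal. GLRX3 fell in SKBR3 too (-0.21 ± 0.047, adjusted p = 0.00430), while GLRX5 had -0.085 ± 0.067 (adjusted p = 0.390) and GLO1 0.010 ± 0.046 (adjusted p = 0.904) there. GPX4, the peroxidase of lipid hydroperoxides, rose by 0.36 ± 0.070 in MDA-MB-231 (adjusted p = 0.000292) and had 0.10 ± 0.056 in SKBR3 (adjusted p = 0.199). In SKBR3 GPX3 rose by 0.66 ± 0.12 (adjusted p = 0.00120) and GLRX by 0.42 ± 0.091 (adjusted p = 0.00327), and GLRX2, the mitochondrial glutaredoxin, fell by 0.30 ± 0.044 on the log2 scale (adjusted p = 0.000185). In MDA-MB-231 GPX3 had 0.14 ± 0.061 (adjusted p = 0.0640), GLRX -0.00075 ± 0.070 (adjusted p = 0.994) and GLRX2 0.12 ± 0.076 (adjusted p = 0.177). There GPX3 stayed uncalled in 13 of 18 alternatives. The others called it higher, among them plain library totals (0.20, adjusted p = 0.00582).

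Of the transferases 5 of 16 rose and 5 fell in MDA-MB-231, led by MGST2 (-0.73 ± 0.072, adjusted p = 6.34e-08), GSTCD (-0.27 ± 0.048, adjusted p = 0.000101) and GSTO2 (0.39 ± 0.077, adjusted p = 0.000247). In SKBR3 3 of 14 rose and 1 fell. The named ones were PTGES (0.31 ± 0.049, adjusted p = 0.000428), MGST1 (0.18 ± 0.047, adjusted p = 0.0117) and GSTA4 (-0.55 ± 0.12, adjusted p = 0.00431). MGST1 also rose (0.23 ± 0.048, adjusted p = 0.000373) and GSTA4 also fell (-0.33 ± 0.084, adjusted p = 0.00266) in MDA-MB-231. PTGES was not called in that line (0.27), nor in 16 of 18 alternatives. In SKBR3 MGST2 (-0.035), GSTO2 (-0.083) and GSTCD (-0.16) were not called, GSTCD in 11 of 14 alternatives too. The 3 rises in SKBR3 became 1 without MitoQ replicate 3, where MGST1 lost its call (adjusted p = 0.0627), and 1 in the single fit, where PTGES lost its own (adjusted p = 0.231). The 1 fall became 2 without control replicate 2, with voom, with no filter, in the single fit and with a replicate block.

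**Figure D4:**
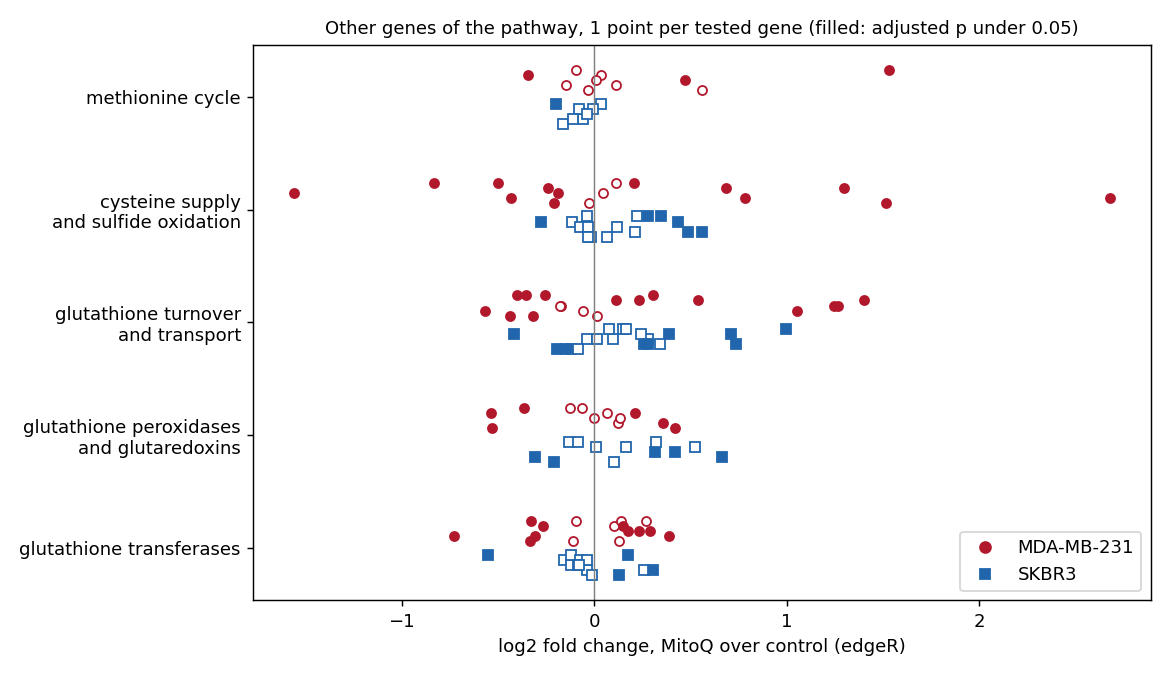
Log2 fold change of MitoQ over control (edgeR) of the other pathway genes in 5 lists, 1 point per gene tested; circles are MDA-MB-231 (n = 5 and 5), squares SKBR3 (n = 3 and 3), and filled symbols have an adjusted p under 0.05. Each list holds rises and falls in MDA-MB-231; the point farthest right is SLC1A4 at 2.68 and the one farthest left SLC1A1 at -1.56.

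The medians of the lists lay near those of all genes, from -0.020 to 0.12 in MDA-MB-231 and from -0.069 to 0.16 in SKBR3. The transcripts of the regulators were measured as well. ATF4 had 456 ± 39.7 CPM with MitoQ and 260 ± 8.60 CPM in controls of MDA-MB-231 (SD, n = 5 each), a rise of 0.83 ± 0.054 (adjusted p = 1.66e-10). In SKBR3 it had 219 ± 9.19 CPM with MitoQ and 199 ± 4.03 CPM in controls (SD, n = 3 each), a rise of 0.12 ± 0.036 (adjusted p = 0.0279), and the effects differed by 0.67 ± 0.081 (adjusted p = 6.04e-07). NFE2L2, which encodes NRF2, rose by 0.29 ± 0.044 in MDA-MB-231 (adjusted p = 1.73e-05) and fell by 0.12 ± 0.043 on the log2 scale in SKBR3 (adjusted p = 0.0447), with effects that differed by 0.37 ± 0.065 (adjusted p = 9.49e-05). KEAP1, the inhibitor of NRF2, had 0.14 ± 0.052 in MDA-MB-231 (adjusted p = 0.0246) and 0.13 ± 0.057 in SKBR3 (adjusted p = 0.105). The single values of ATF4, NFE2L2, KEAP1, AHCY and GPX4 were not checked under the alternatives. Activity of either factor was not measured.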

How the data were processed

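RNA was sequenced from 16 libraries, grouped by line and treatment per the labels. The authors deposited estimated counts per gene, whole numbers made with Salmon on GRCh38, with edgeR also named, per the submitters' processing notes; versions, annotation release and rounding are not given in the sources used here. All rows were tested, after filterByExpr and TMM scaling, with edgeR 4.0.16 in R 4.3.3 (robust quasi-likelihood F test, two-sided), with Benjamini-Hochberg adjustment over all genes tested. Treatment was fitted within each line, the difference of effects over all 16 libraries, and lines over the 8 controls. CBS and CBSL were fitted singly and as their sum. SEs were derived as the size of the log2 fold change divided by the root of F. Exon lengths and positions come from GENCODE 29. Genes of 1 symbol with several IDs were read from the ID with the most counts.

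Named genes are all members, the 3 called genes of smallest p per list and treatment comparison, a panel of 6 and the 3 nearest in pattern; others are marked as picked after their values were seen. The members and lists were chosen with earlier results of these data known. Alternatives were other size factors, plain totals, DESeq2 1.42.0, limma 3.58.1 voom, other filters, a single fit, a replicate block and each library left out.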

Additional observations from a re-analysis of the deposited data

Results flagged for a closer look

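In 3 of 22 groups of 5 MDA-MB-231 libraries 1 library stood apart from the other 4, where chance flags about 1 in 20. CBSL was highest in MitoQ replicate 1, at 0.333 CPM, a level of few counts. SLC7A11 at 409 CPM and GCLC at 47.4 CPM were both highest in MitoQ replicate 2, the library that also had the highest CTH, GCLM and GSR. Without that library SLC7A11 and GCLC were still called higher in MDA-MB-231.

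The effect of MitoQ differed between MDA-MB-231 and SKBR3 by the interaction test of edgeR in 8 cases, given as log2 differences. These count CBSL both alone and within CBS+CBSL. Of all 17094 genes tested 34.1% were called in that comparison. The effect was larger in MDA-MB-231 for CTH (3.10), CHAC1 (0.77), SLC7A11 (0.71), GSR (0.38), GCLC (0.34) and GSS (0.22), and smaller for CBS+CBSL (-1.63) and CBSL (-1.41). The last pair of rows did not pass the filter on low counts within MDA-MB-231 and entered the fit through their level in SKBR3, so their MDA-MB-231 side rests on few counts.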

How the results depend on the processing

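Of 727 values of single members under the alternatives, 699 kept their side of the threshold, 21 lost the call and 7 gained one. No called value changed direction. Uncalled values that changed sign and stayed uncalled are among the 699, as for GCLM in SKBR3 (0.045, at lowest -0.0073). The number of members called lower in MDA-MB-231, 0, became 1 with DESeq2 and in the single fit over all libraries, and lay between 0 and 1 with 1 library left out. In SKBR3 the single fit called 2788 genes and 1 member lower, in place of 4202 and 2; leaving out a library gave 2565 to 4547 genes and 1 to 2 members. For the difference between lines voom called 2 members lower, in place of 1, and leaving out a library gave 0 to 2. The cause was not tested. The labels number the replicates alike, but no pair of same-numbered libraries correlated over 0.1 in its deviations (-0.046 to 0.019), and no library correlated best with its own number. With a replicate block 8363 genes were called in MDA-MB-231, 4758 in SKBR3, 5416 for the difference between lines and 13916 between controls. Among members the block lost GSS for the difference between lines (adjusted p = 0.0879) and no other call. Depth limits CBS and CBSL in MDA-MB-231, where 29 counts in MitoQ libraries and 18 in controls leave an interval of 0.902 to 3.21 for the ratio.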
